A study of Mus musculus with 16 samples.

Results

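Potassium channel genes were examined here as the 94 protein-coding genes of the mouse mm9 annotation (GENCODE M1) whose symbol begins with Kcn, out of 22232 protein-coding gene names. The question was at how many of them the Polycomb marks H2AK119ub1 and H3K27me3, or the Polycomb protein PCGF5, were called at the promoter, before and after neural differentiation and with or without PCGF5. The study profiled mouse embryonic stem cells (ES), which carried a green fluorescent reporter in the early neural gene Sox1, and neural progenitor cells (NPC), taken at day 6 after those ES were differentiated in suspension. H2AK119ub1 and H3K27me3 were mapped by chromatin immunoprecipitation and sequencing (ChIP-seq) in wild type and PCGF5-depleted cells at both stages. The labels name a short hairpin RNA against PCGF5 for the depleted cells, and the study's methods describe picking clonal clusters after viral infection and drug selection, so each depleted library may stand for few clones. The methods also describe a nuclease knockout of Pcgf5, and the labels of these libraries do not mention it. PCGF5 itself was mapped with an antibody to Flag in ES and NPC labelled as wild type, from a line whose own Pcgf5 gene carried a Flag tag.

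Each group had 1 library, so no replicate error existed and no difference was tested. A gene was counted as marked when the centre of a peak lay within 2500 bp of the start of any of its protein-coding transcripts, and a gene that was not counted had no called peak there, which is not the same as no mark. Intervals are 95% Wilson intervals over genes, and do not cover the spread between libraries. The lists held 3845 to 14759 peaks for the histone marks, 653 for Flag-PCGF5 in ES and 12013 for Flag-PCGF5 in NPC. Sequencing depth was not in the files, so the depth behind each list is unknown. Of 5 regulators of other lineages that Polycomb is known to hold in ES, all 5 carried H3K27me3 in every H3K27me3 list. H3K27me3 was called at 1 of 5 pluripotency genes, Esrrb, in both ES lists, at 3 of 5 in wild type NPC and at 2 of 5 in depleted NPC. Of the neural genes Pax6, Nes and Tubb3, all were called in both NPC lists, Pax6 also in both ES lists and Nes also in depleted ES. Sox1 was not among the protein-coding gene names of this annotation and could not be read. The Pcgf5 promoter had an H3K27me3 peak in both wild type lists and in neither depleted list, and RNA was not measured here, so the extent of the depletion could not be read from these data.

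Potassium channels let potassium ions leave or enter a cell and so set its resting potential and end its action potentials. Voltage-gated pore subunits open on depolarisation, inward rectifiers and tandem-pore-domain channels hold the resting potential, calcium- or sodium-activated channels respond to ions inside the cell, and auxiliary subunits tune the pores they bind. Many are used late in development, in neurons, muscle, kidney or endocrine cells. Polycomb complexes keep developmental genes silent through H2AK119ub1, set by PRC1 (of which PCGF5 is a variant subunit), and H3K27me3, set by PRC2, and they act mostly at CpG-rich starts.

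Potassium channel genes carried the Polycomb marks several times as often as protein-coding genes at large. H3K27me3 was called at 56 of 94 (59.6%, interval 49.5 to 68.9%) in wild type ES, beside 13.4% of all protein-coding genes. In PCGF5-depleted ES it was called at 48 (51.1%, 41.1 to 60.9%), beside 12.9%. In wild type NPC it was called at 60 (63.8%, 53.8 to 72.8%), beside 15.7%, and in PCGF5-depleted NPC at 57 (60.6%, 50.5 to 69.9%), beside 15.5%. The potassium channel share was thus 3.92 to 4.45 times the share of all genes in the 4 libraries, and it stayed between 3.64 and 4.72 times in all 8 alternative ways of counting peaks.

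H2AK119ub1 was called at fewer potassium channel genes, and its share over that of all genes was of similar size. In wild type ES 28 of 94 (29.8%, 21.5 to 39.7%) had a peak, beside 6.69% of all protein-coding genes. In PCGF5-depleted ES 21 (22.3%, 15.1 to 31.8%) had a peak, beside 5.96%. In wild type NPC the count was 17 (18.1%, 11.6 to 27.1%), beside 4.98%, and in PCGF5-depleted NPC 19 (20.2%, 13.3 to 29.4%), beside 4.17%. The ratio to all genes was 3.63 to 4.84, and it ranged from 2.68 to 5.67 over the same alternatives.

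Flag-PCGF5 in NPC did not share this pattern, and the ES list was too short to tell. In ES no potassium channel gene had a peak (0 of 94, interval up to 3.93%), beside 0.787% of all protein-coding genes. At so low a background share, a count of 0 in 94 genes cannot tell an excess like that of the histone marks from none. In NPC 12 (12.8%, 7.46 to 21%) had one, beside 13.7% of all genes, which put the family at 0.929 times the background. When the NPC list was cut to its 653 top-scoring peaks, the length of the ES list, no potassium channel gene was left in it. All genes were then at 0.724%, and the same limit holds for this count.

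**Figure D1:**
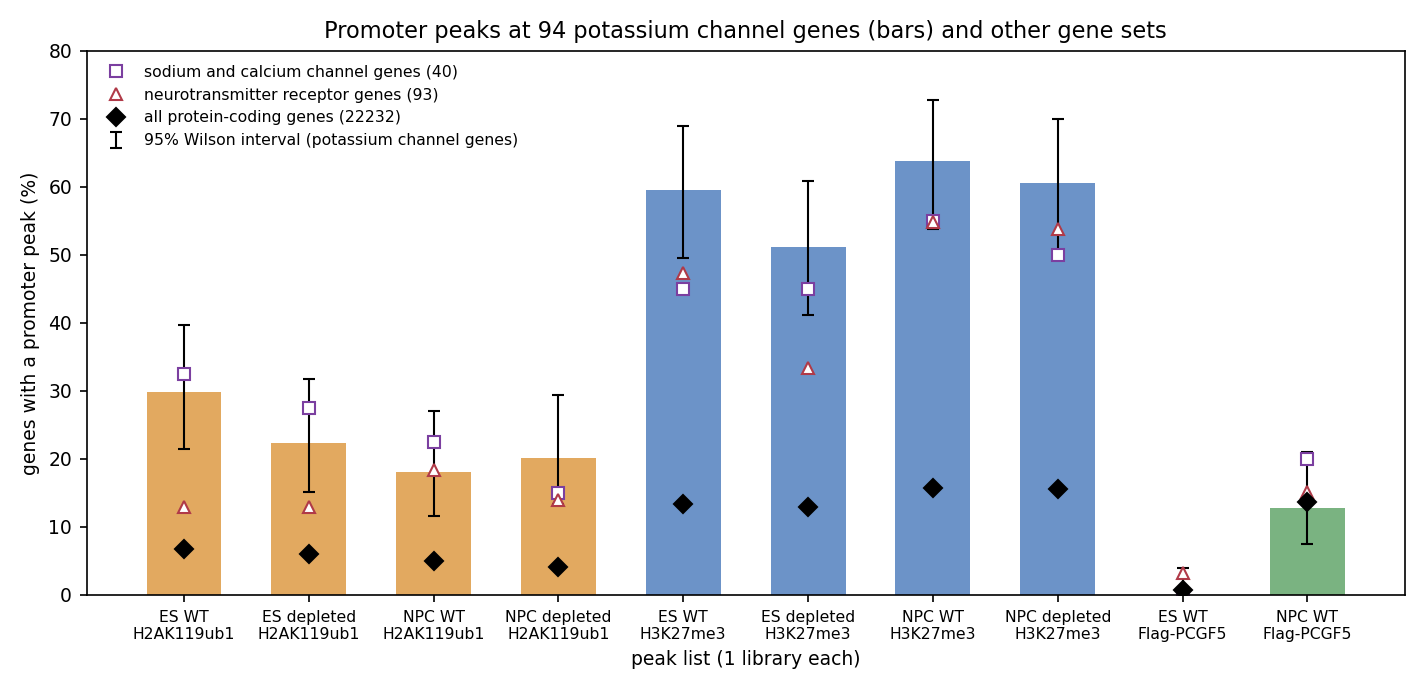
Share of genes with a promoter peak (y axis, percent) in each of the 10 peak lists (x axis, 1 library each). Bars are the 94 potassium channel genes with 95% Wilson intervals, squares 40 sodium and calcium channel genes, triangles 93 neurotransmitter receptor genes and diamonds all 22232 protein-coding genes. The bars stand well above the diamonds for both histone marks, while the Flag-PCGF5 bar of NPC (12.8%) sits at the diamond (13.7%).

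Other genes of electrical signalling gave shares on the same side of the background. Among 40 genes for sodium and calcium channels, H3K27me3 was called at 45% in wild type ES and 55% in wild type NPC, and H2AK119ub1 at 32.5% and 22.5%. Among 93 genes for neurotransmitter receptors, H3K27me3 was called at 47.3% and 54.8%, and H2AK119ub1 at 12.9% and 18.3%. Each of these shares lay inside or below the interval of the potassium channel genes in the same library, and the differences between the families were not tested.

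Most of the family was marked in at least 1 library. Of the 94 genes, 70 (74.5%) had an H3K27me3 peak in at least 1 of its 4 lists, beside 23.1% of all protein-coding genes, and 36 (38.3%) had it in all 4, beside 7.21%. For H2AK119ub1, 47 (50%) had a peak in at least 1 list, beside 12% of all genes, and only 4 (4.26%) had it in all 4, beside 1.52%. In the 10 lists together 20 members (21.3%) had no promoter peak at all, beside 66.2% of all genes.

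The channel classes differed in how often they were counted. Over all protein-coding genes, 23.1% had H3K27me3 in at least 1 list and 7.21% in all 4. Of the 40 voltage-gated genes, 35 had it in at least 1 list and 18 in all 4. Tandem-pore-domain genes followed with 11 of 14 in at least 1 list and 7 in all 4, and inward rectifiers with 10 of 15 and 4. The 8 calcium- or sodium-activated genes had 5 in at least 1 list and 1, Kcnt1, in all 4, and the 17 auxiliary genes had 9 and 6. In wild type NPC H2AK119ub1 was called at 0 of 8 calcium- or sodium-activated and 0 of 17 auxiliary genes, beside 4.98% of all genes. In classes this small a count of 0 is near that share. The counts in wild type ES were 3 and 4, beside 6.69% of all genes. In depleted NPC H2AK119ub1 was called at 2 of the 17 auxiliary genes, Kcnip1 and Kcnip4, beside 4.17% of all genes. These classes are small, and the differences between them were not tested.

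**Figure D2:**
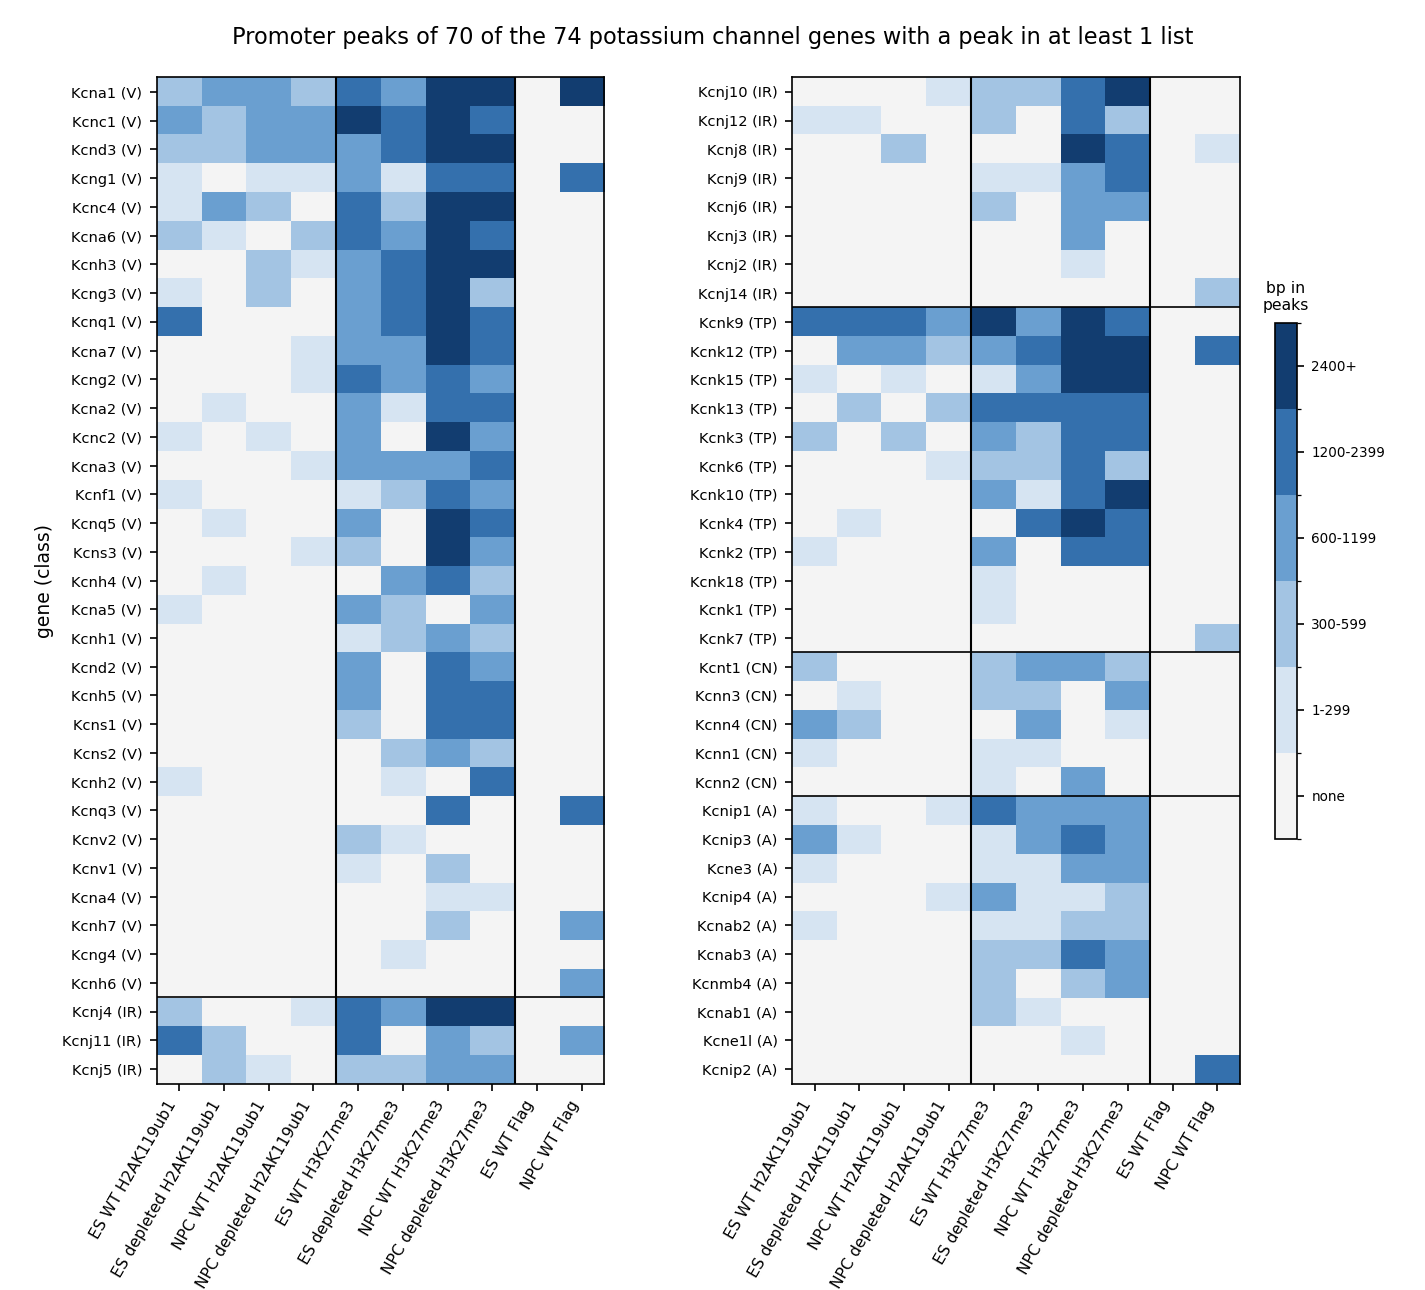
Base pairs covered by promoter peaks (colour, in the bins of the key) for 70 of the 74 potassium channel genes with a peak in at least 1 list (rows) in the 10 lists (columns). Rows are grouped by class (V voltage-gated, IR inward rectifier, TP tandem-pore-domain, CN calcium- or sodium-activated, A auxiliary) and within a class by the number of lists. The NPC H3K27me3 columns hold most of the darkest cells, and the H2AK119ub1 columns are filled mainly in the rows at the top of each class.

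Both marks were called in every library at 4 genes, namely Kcna1, Kcnc1, Kcnd3 and Kcnk9. Kcna1 encodes a delayed-rectifier subunit of axons and lies at chr6:126586481-126595819 on the minus strand. It was in 9 of the 10 lists, the most of any member, and lacked only Flag-PCGF5 in ES. Its H3K27me3 peaks covered 2104 bp in wild type ES, 854 bp in PCGF5-depleted ES, and in NPC 2816 bp in wild type and 4088 bp in depleted cells. Peaks differed in width between the lists at all genes, so these lengths, here and below, do not rank the libraries. Its H2AK119ub1 peaks covered 414, 603, 705 and 325 bp in the same order, and a single Flag-PCGF5 peak of 2817 bp (fold 2.1 over background) ran across the start in NPC.

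Kcnc1 (chr7:53651867-53693745, plus strand) encodes a channel of fast-spiking neurons. H3K27me3 covered 2471 bp there in wild type ES, 1503 bp in depleted ES, 3853 bp in wild type NPC and 2281 bp in depleted NPC. Its H2AK119ub1 peak in depleted NPC had a fold of 9.61, the highest of any member in that list.

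Kcnd3 (chr3:105255248-105476920, plus strand) encodes a subunit of the fast transient A-type current. In wild type NPC its H3K27me3 formed 1 peak of 3792 bp across the start, and in depleted NPC 4 peaks that covered 3241 bp with a fold of up to 9.76. In ES the coverage was 671 bp in wild type and 1413 bp in depleted cells. Its H2AK119ub1 fold of 7.04 was the highest of any member in wild type ES.

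Kcnk9 (chr15:72342549-72376709, minus strand) encodes an acid-sensitive background channel of the tandem-pore-domain class. It had the widest single H3K27me3 peak of the family, 4490 bp in wild type NPC, beside 2195 bp in 2 peaks in depleted NPC. In ES the peaks covered 2594 bp in wild type and 1166 bp in depleted cells. Its H2AK119ub1 covered 1680, 1290, 1296 and 1115 bp in wild type ES, depleted ES, wild type NPC and depleted NPC, the widest H2AK119ub1 coverage of any member in wild type ES and in both NPC libraries.

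**Figure D3:**
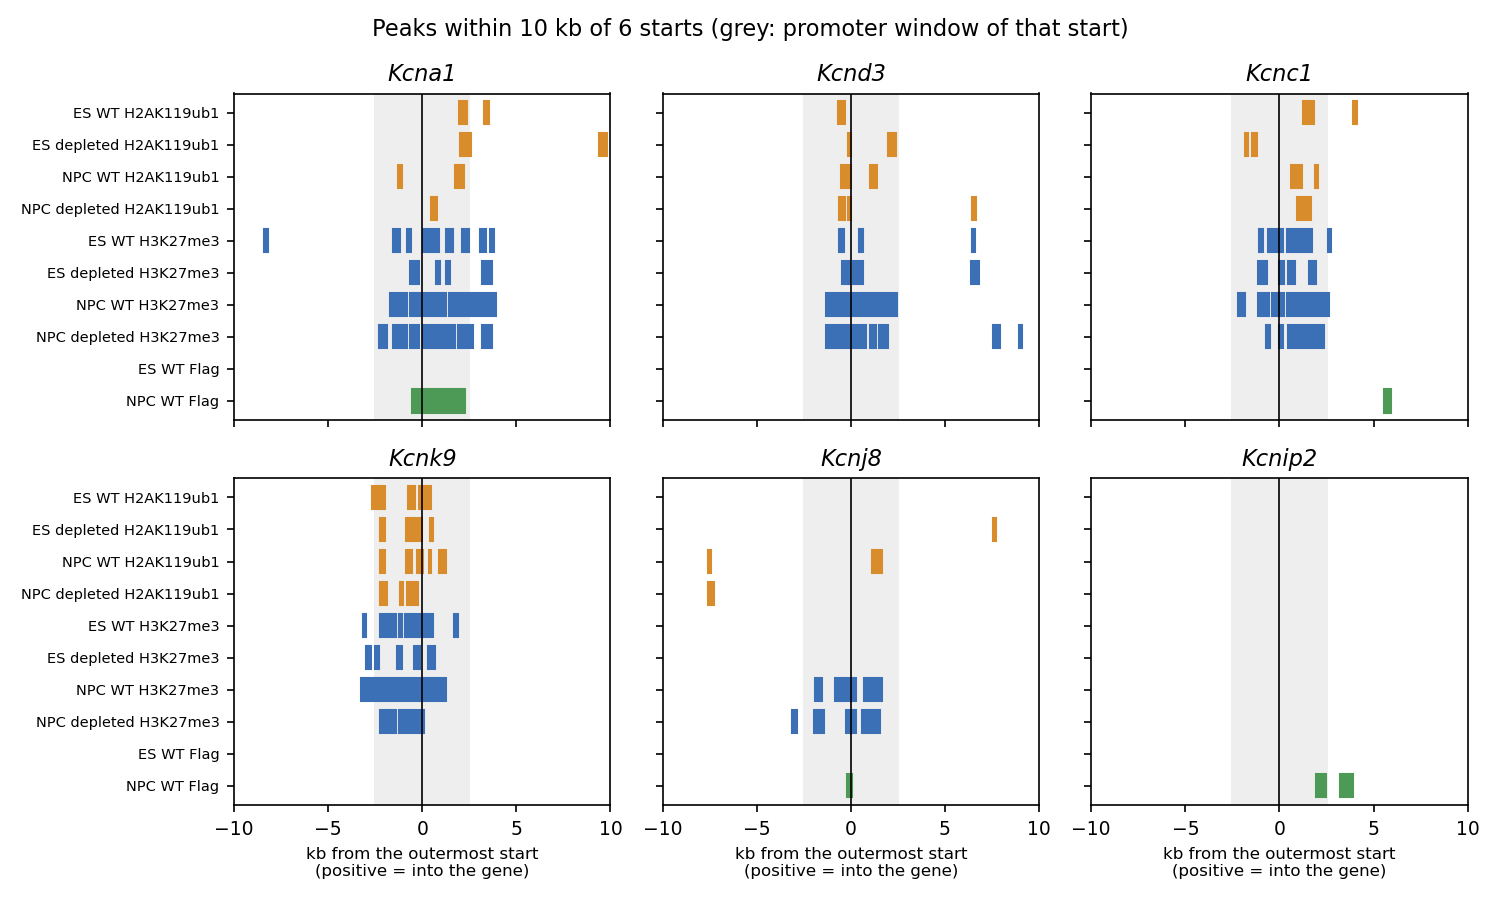
Called peaks (boxes) in the 10 lists (rows) by distance from the outermost annotated start (x axis, kb, positive into the gene) for 6 potassium channel genes. Kcna1, Kcnd3, Kcnc1 and Kcnk9 show both marks in every histone row with the longest histone boxes in NPC H3K27me3, Kcnj8 shows H3K27me3 only in NPC, and Kcnip2 shows only Flag-PCGF5 in NPC. Grey marks 2500 bp on either side of that start; other starts of a gene are not drawn.

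The next members by number of lists came mostly from the voltage-gated class. Kcnk12, a tandem-pore-domain gene, and Kcng1, a silent subunit that modifies other pores, were in 8 lists each. Kcnc4 and Kcna6 were among those in 7, and Kcnh3 and the inward rectifier Kcnj4 in 6 each. In wild type NPC the H3K27me3 coverage of these named genes ran from 1359 bp at Kcng1 to 4475 bp at Kcnh3, against 755 bp and 989 bp at the same genes in wild type ES. Kcnh3 had no H2AK119ub1 peak in either ES list and one in both NPC lists, the only member with that pattern. The highest H3K27me3 fold of any member in wild type NPC, 12.4, lay at Kcna7 in a 2195 bp peak.

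H3K27me3 peaks at members were longer in NPC than in ES, as they were at all genes. The median covered length per marked potassium channel gene was 638 bp in wild type ES, 606 bp in depleted ES, 1630 bp in wild type NPC and 1210 bp in depleted NPC. Over all marked genes the medians were 556, 521, 1300 and 940 bp. Lists with broader peaks differ in width at every gene, so these lengths compare members within a library and not the amount of mark between libraries.

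Between genotypes in ES, H3K27me3 was called in both lists at 41 members, in wild type alone at 15 and in PCGF5-depleted cells alone at 7. Of the 56 marked in wild type, 73.2% were thus also marked in depleted ES, beside 70.9% of all genes. The difference was not kept when both lists were cut to 10234 top-scoring peaks, which left 48 members in each, beside 12.4% and 12.9% of all genes. The 5 wild type-only members with the most covered bases were Kcnj11 (1772 bp), a pore of the ATP-sensitive channel of beta cells, Kcnc2 (953 bp), Kcnk2 (935 bp), Kcnd2 (840 bp) and Kcnq5 (758 bp). The others were Kcnh5, Kcns3, Kcns1, Kcnj6, Kcnj12, Kcnmb4, Kcnv1, Kcnn2, Kcnk18 and Kcnk1. The depleted-only members included Kcnk4 (1319 bp), a mechanosensitive channel, Kcnh4 (944 bp), Kcnn4 (914 bp) and Kcns2 (350 bp), with Kcng4 and Kcnh2 at lower coverage. At each of these genes the other genotype had no peak in the window, and the spread between 2 libraries of 1 genotype is unknown.

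H2AK119ub1 in ES overlapped less between genotypes. It was called in both lists at 12 members, in wild type alone at 16 and in depleted cells alone at 9, a net change of -7. Of those marked in wild type 42.9% were marked in depleted ES, beside 48.8% of all genes. Wild type alone led with Kcnq1 (1472 bp), the slow cardiac and inner-ear channel, followed by Kcnj4 (515 bp), the background channel Kcnk3 (513 bp), the sodium-activated Kcnt1 (360 bp) and Kcnn1 (265 bp). It also held Kcng3, Kcnk15, Kcne3, Kcnf1, Kcnab2, Kcnip1, Kcna5, Kcng1, Kcnc2, Kcnk2 and Kcnh2. Depleted ES alone included Kcnk12 (771 bp), Kcnk13 (578 bp), Kcnj5 (362 bp), Kcna2 (255 bp), Kcnh4, Kcnk4, Kcnn3 and Kcnq5. When each H2AK119ub1 list was cut to its 3845 top-scoring peaks, 20.2% of members were left in wild type ES and 9.57% in depleted ES, beside 3.63% and 3.57% of all genes.

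In NPC the H3K27me3 lists of the genotypes shared most members. It was called in both at 53, in wild type alone at 7 and in depleted cells alone at 4. Of those marked in wild type 88.3% were thus marked in depleted NPC, beside 76.1% of all genes. For sodium and calcium channel genes this share was 81.8%, and for neurotransmitter receptor genes 90.2%. The net change of -3 turned to 4 (42 against 46 members) when only the higher-scoring 50% of each list was used. Wild type alone held Kcnq3 (1244 bp), a subunit of the M-current channel, Kcnj3 (1138 bp), a G-protein-gated inward rectifier, Kcnn2 (973 bp), Kcnh7 (468 bp), Kcnv1 (351 bp), Kcnj2 and Kcne1l. Depleted NPC alone held Kcnh2 (1213 bp), which repolarises heart cells, Kcna5 (846 bp), Kcnn3 (783 bp) and Kcnn4 (196 bp).

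H2AK119ub1 in NPC was shared at 7 members, in wild type alone at 10 and in depleted cells alone at 12, a net change of 2. The shared share of the wild type members was 41.2%, beside 50.7% of all genes. The shared members were Kcnk9, Kcnd3, Kcnc1, Kcna1, Kcnk12, Kcnh3 and Kcng1. Wild type alone included Kcnc4 (525 bp), Kcnj8 (507 bp), Kcnk3 (487 bp), Kcng3 (385 bp), Kcnk15 (277 bp), Kcnc2 and Kcnj5. Depleted NPC alone included Kcnk13 (533 bp), Kcna6 (445 bp), the glial inward rectifier Kcnj10 (276 bp), Kcns3 (241 bp), Kcng2, Kcna3, Kcna7, Kcnk6, Kcnip1, Kcnip4 and Kcnj4. The net change of 2 became -3 when only the higher-scoring 50% of each list was used.

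Across differentiation of wild type cells, H3K27me3 was kept at most members and H2AK119ub1 at fewer. H3K27me3 was called at both stages at 49 members, in ES alone at 7 and in NPC alone at 11. Of the ES members 87.5% were kept, beside 71.5% of all genes, 94.4% of the sodium and calcium channel genes and 95.5% of the neurotransmitter receptor genes. H2AK119ub1 was called at both stages at 11 members, in ES alone at 17 and in NPC alone at 6, and 39.3% were kept, beside 37% of all genes. The H3K27me3 members of wild type ES alone were Kcna5, Kcnab1, Kcnn3, Kcnv2, Kcnn1, Kcnk18 and Kcnk1. Kcna4 and Kcnj8, the pore of the vascular ATP-sensitive channel, were the only members with H3K27me3 in both NPC lists and neither ES list. Kcnj8 had 2483 bp in wild type NPC and 2066 bp in depleted NPC.

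The study asked whether PCGF5 loss keeps marks that wild type cells lose on differentiation. Among the 17 members with H2AK119ub1 in wild type ES and not in wild type NPC, 4 (23.5%) had a peak in depleted NPC, among them Kcna6, Kcnip1 and Kcnj4, beside 16.1% of the 938 such genes in all. For H3K27me3 it was 2 of 7 (28.6%), Kcna5 and Kcnn3, beside 35.7% of 847 genes. Neither difference from all genes was tested. Between depleted ES and depleted NPC, H3K27me3 was called at 44 members at both stages, 4 in ES alone and 13 in NPC alone. Of the ES members 91.7% were kept, beside 76.3% of all genes, 88.9% of the sodium and calcium channel genes and 87.1% of the neurotransmitter receptor genes. H2AK119ub1 was called at 8, 13 and 11 members in the same order, and 38.1% were kept, beside 40.9% of all genes. Its net change of -2 turned to 4 with a window of 1000 bp and to 10 with equal numbers of peaks.

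The marks fell on the same members within a library. Of the members with H2AK119ub1, 26 of 28 (92.9%) also had H3K27me3 in wild type ES, 18 of 21 (85.7%) in depleted ES, 17 of 17 in wild type NPC and 19 of 19 in depleted NPC. The same shares over all genes were 79.8%, 73.3%, 94.9% and 92.6%. The exceptions were Kcnn4 and Kcnh2 in wild type ES, and Kcnj11, Kcnj12 and Kcnq5 in depleted ES. In the other direction 46.4%, 37.5%, 28.3% and 33.3% of the H3K27me3 members had H2AK119ub1, beside 39.9%, 33.8%, 30.2% and 25% of all H3K27me3 genes.

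The 12 members with Flag-PCGF5 in NPC had folds of 1.84 to 2.68, in a list whose median fold was 2.22. H3K27me3 was called in wild type NPC at 8 of them (66.7%), among them Kcna1, Kcng1, Kcnh7, Kcnj8, Kcnj11, Kcnk12 and Kcnq3, beside 25.3% of all genes with Flag-PCGF5. H2AK119ub1 was called at 5 (41.7%), among them Kcna1, Kcng1, Kcnj8 and Kcnk12, beside 8.22% of all genes with Flag-PCGF5. The share of all members with H2AK119ub1 in wild type NPC was 18.1%, and the difference was not tested. Since 63.8% of all members had H3K27me3 in wild type NPC, the 66.7% of the Flag-PCGF5 members was near the share of the family. Coverage was 2817 bp at Kcna1, and the highest fold was 2.68 at Kcnj14 over 307 bp. The 4 without H3K27me3 were Kcnip2 (2378 bp in 3 peaks), a calcium-binding partner of A-type pores, Kcnh6 (987 bp), Kcnk7 (592 bp) and Kcnj14. None of these 4 had a histone peak at the promoter in any of the 8 histone lists. Both marks were called at Kcnd3, Kcnc1 and Kcnk9 in NPC with no Flag-PCGF5 promoter peak. Away from promoters, Flag-PCGF5 in NPC had 6 peaks in the body of Kcnc1 and 2 in that of Kcnd3. Over the bodies of all members it had 4.81 peaks per Mb, beside 4.48 for all protein-coding genes.

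Members in more H3K27me3 lists had starts richer in CpG. The CpG observed/expected ratio, which compares the CG dinucleotides in the 1000 bp around the outermost start with the number its base composition would give, had a median of 0.24 at the 24 members in no H3K27me3 list. It was 0.42, 0.45 and 0.67 at members in 1, 2 and 3 lists and 0.72 at the 36 in all 4. Over all protein-coding genes the medians ran from 0.48 to 0.69, and as a whole the family was not richer in CpG than other genes, with a median of 0.52 beside 0.55.

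Starts were called CpG-rich at a ratio of at least 0.6 with GC of at least 50%, which held for 41 members (43.6%), beside 44.6% of all genes. In wild type NPC H3K27me3 was called at 38 of these 41 (92.7%, interval 80.6 to 97.5%), beside 21.9% of all CpG-rich genes, and at 22 of the 53 others (41.5%), beside 10.6%. In wild type ES the shares were 80.5% and 43.4%, beside 17.6% and 9.99%. The excess of the family over all genes was thus present among CpG-rich and CpG-poor starts alike. Flag-PCGF5 in NPC was called at 12.2% of CpG-rich and 13.2% of other members, beside 20.3% and 8.44% of all genes. Kcnk5, an acid-sensitive background channel, was the only CpG-rich member with no H3K27me3 peak in any list.

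**Figure D4:**
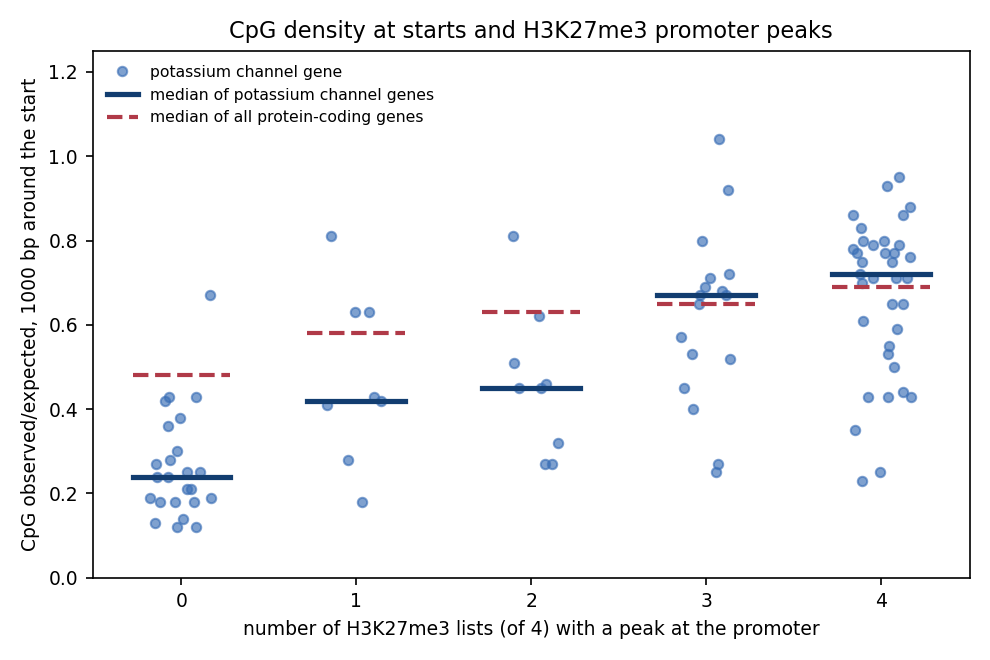
CpG observed/expected ratio in the 1000 bp around the outermost start (y axis) by the number of H3K27me3 lists with a promoter peak (x axis, 0 to 4). Points are the 94 potassium channel genes (spread sideways only for display), solid bars their medians and dashed bars the medians of all protein-coding genes. The potassium channel medians climb from 0.24 to 0.72, and the lone high point at 0 lists is Kcnk5.

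The 200 bp before the outermost start are shown for 7 members that span this range, on the strand of the gene in mm9, with each CG dinucleotide in capitals. CG is its own reverse complement, so 1 strand was searched. Kcnd3, in 8 lists, holds 26 CG in chr3:105255048-105255247 (plus strand), and Kcng3, with H3K27me3 in all 4 lists, holds 33 in chr17:84031236-84031435 (minus strand). Kcna1, in 9 lists, holds 10 in chr6:126595820-126596019 (minus strand). Kcna10, in no list, holds 0 in chr3:106985774-106985973 (plus strand), and Kcnj15, in no list, holds 1 in chr16:95478965-95479164 (plus strand). Kcnk5, in no list, holds 14 in chr14:21001005-21001204 (minus strand), and Kcnip2, with Flag-PCGF5 alone, holds 13 in chr19:45890552-45890751 (minus strand). At least 1 CG was present in this window at 95.7% of members and 90.4% of all genes, with medians of 9 and 7.
Kcnd3: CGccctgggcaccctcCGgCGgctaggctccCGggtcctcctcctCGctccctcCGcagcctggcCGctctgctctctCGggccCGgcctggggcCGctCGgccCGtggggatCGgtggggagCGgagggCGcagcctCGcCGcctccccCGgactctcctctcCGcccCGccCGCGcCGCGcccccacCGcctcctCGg
Kcng3: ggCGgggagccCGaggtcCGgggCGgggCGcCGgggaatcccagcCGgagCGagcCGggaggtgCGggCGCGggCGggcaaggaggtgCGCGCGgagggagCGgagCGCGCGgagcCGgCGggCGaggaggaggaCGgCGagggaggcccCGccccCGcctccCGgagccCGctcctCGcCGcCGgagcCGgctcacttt
Kcna1: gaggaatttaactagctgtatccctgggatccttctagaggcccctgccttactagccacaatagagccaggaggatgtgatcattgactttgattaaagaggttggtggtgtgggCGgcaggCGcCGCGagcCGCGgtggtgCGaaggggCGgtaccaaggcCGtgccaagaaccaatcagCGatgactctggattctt
Kcna10: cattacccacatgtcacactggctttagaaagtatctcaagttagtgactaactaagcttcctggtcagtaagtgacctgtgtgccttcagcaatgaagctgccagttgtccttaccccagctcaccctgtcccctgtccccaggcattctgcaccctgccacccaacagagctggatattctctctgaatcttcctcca
Kcnj15: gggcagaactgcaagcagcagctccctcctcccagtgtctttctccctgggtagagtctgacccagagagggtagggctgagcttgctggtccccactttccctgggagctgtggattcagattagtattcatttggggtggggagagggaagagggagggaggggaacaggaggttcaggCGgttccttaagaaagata
Kcnk5: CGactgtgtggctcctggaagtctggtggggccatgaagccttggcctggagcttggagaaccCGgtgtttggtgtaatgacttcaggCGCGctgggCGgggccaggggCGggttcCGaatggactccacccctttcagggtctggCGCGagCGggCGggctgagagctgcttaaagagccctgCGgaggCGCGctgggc
Kcnip2: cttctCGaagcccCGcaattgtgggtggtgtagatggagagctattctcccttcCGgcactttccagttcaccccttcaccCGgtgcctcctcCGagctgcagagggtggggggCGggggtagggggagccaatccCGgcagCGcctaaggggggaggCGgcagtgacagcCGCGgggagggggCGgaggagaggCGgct

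Kcna10 lies beside marked relatives. Its start is 81489 bp from that of Kcna2, which in turn is 65405 bp from Kcna3, and both Kcna2 and Kcna3 had H3K27me3 in all 4 lists with 16 and 26 CG in the same window. No peak at a member's promoter was shared with another member in any list, so no member was counted on the peak of a neighbouring member. Some peaks also lay at the start of a gene outside the family, as at Kcna3, which shared peaks with AI504432. With each peak given only to its nearest gene, no list lost a member.

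The 20 members without a promoter peak in any list came from every class. They were the inward rectifiers Kcnj1, Kcnj13, Kcnj15 and Kcnj16, the voltage-gated Kcna10, Kcnb2, Kcnd1 and Kcnh8, the tandem-pore-domain Kcnk5 and Kcnk16, the calcium- or sodium-activated Kcnma1, Kcnt2 and Kcnu1, and the auxiliary Kcne1, Kcne2, Kcne4, Kcnmb1, Kcnmb2, Kcnmb3 and Kcnrg. For Kcnb2, Kcnh8, Kcnma1 and Kcnmb3 the annotated gene is over 5000 bp shorter here than in a later RefSeq table, so starts that this annotation lacks were not searched. In all 17 of the 94 members had such a shorter model.

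Away from promoters, histone peaks inside potassium channel genes were denser in each ES list than in the NPC list of the same mark and genotype, and Kcnq1 held more of them than any other member. Over all protein-coding genes, H2AK119ub1 gave 3.26 peaks per Mb in wild type ES and 1.27 in wild type NPC, and 2.12 and 0.95 in depleted cells. For H3K27me3 the values were 3.33 and 1.88 in wild type, and 2.46 and 2.78 in depleted cells. In NPC the H2AK119ub1 densities of members, 0.409 in wild type and 0.614 in depleted cells, lay below those of all genes. They rest on only 4 and 6 peaks. Counted by gene the order was the other way. A body peak was present in 4.26% and 5.32% of members, beside 2.37% and 2.5% of all genes. Members were also longer, with a median of 28.1 kb beside 15.5 kb. The gene model Gm20388 held the most H2AK119ub1 body peaks in both NPC lists and was kept in the all-gene densities. Members held 14.4 H2AK119ub1 peaks per Mb of gene body in wild type ES, beside 3.26 for all protein-coding genes. Kcnq1 alone accounted for 94 of the 141 peaks, and without it the density was 4.97. Depleted ES gave 5.63, and 3.49 without Kcnq1. For H3K27me3 members held 8.91 in wild type ES and 1.84 in wild type NPC, and 3.99 and 2.97 in depleted cells. Without Kcnq1 these were 5.4 and 1.69, and 3.28 and 2.96, so in depleted cells the H3K27me3 densities of the stages were then close. Kcnq1 lies in an imprinted region of chromosome 7 (chr7:150293159-150612955, plus strand). Its body held 94 H2AK119ub1 peaks in wild type ES, 22 in PCGF5-depleted ES and 0 in either NPC list. H3K27me3 gave 36, 8, 2 and 1 peaks in wild type ES, depleted ES, wild type NPC and depleted NPC. In wild type ES only 1 protein-coding gene name, the gene model Gm20388, held more body peaks for either mark.

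The Kcnq1 peaks of wild type ES formed 2 stretches. Apart from a lone peak at 5.7 kb past the start, H2AK119ub1 peaks ran from 52.7 to 92.2 kb and from 193.4 to 319.4 kb, with none between these stretches. H3K27me3 peaks ran from 46.9 to 90.0 kb and from 206.6 to 311.5 kb. The H2AK119ub1 peaks had a median fold of 4.73 and covered 29055 bp. In lists of equal length, 3845 peaks for H2AK119ub1 and 10234 for H3K27me3, the wild type and depleted ES counts were 45 against 10 and 31 against 8, and the order of the genotypes was the same as in the full lists. At the Kcnq1 promoter H3K27me3 was called in all 4 lists and H2AK119ub1 in wild type ES alone. Flag-PCGF5 had no peak in Kcnq1, while all 6 Flag-PCGF5 peaks in the bodies of members in ES lay in Kcnip1.

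**Figure D5:**
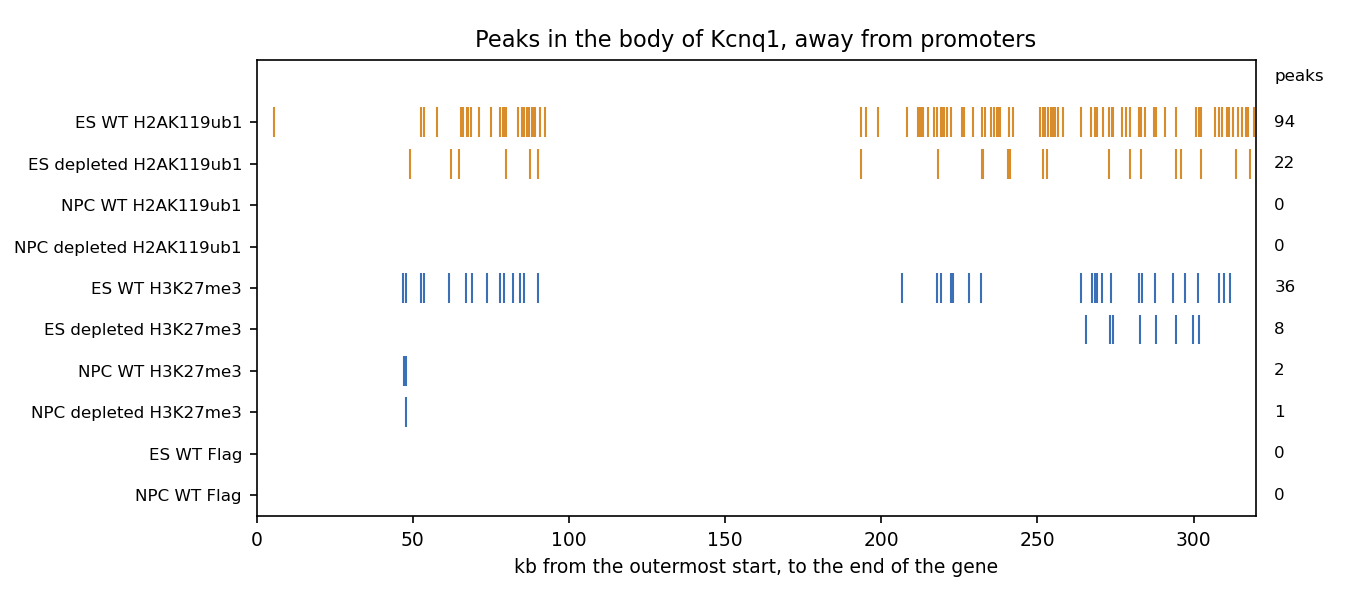
Centres of peaks in the body of Kcnq1, leaving out promoter peaks (lines), by distance from the outermost start (x axis, kb) in the 10 lists (rows), with the number of peaks at the right. The wild type ES rows (94 H2AK119ub1 and 36 H3K27me3 peaks) and the depleted ES row of H2AK119ub1 (22) leave the same gap between 2 stretches, the 8 H3K27me3 peaks of depleted ES lie from 265.4 to 301.6 kb only, and the NPC rows hold 0 to 2.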

How the data were processed

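ChIP-seq peak lists of 10 libraries were analysed, and the 6 input libraries were not used here. Per the study's methods, chromatin for the histone marks was cut with micrococcal nuclease and chromatin for Flag was crosslinked and sonicated, which gives different peak widths. The authors trimmed reads, aligned them to mm9 with Bowtie2, removed duplicates and called peaks per library with MACS2 (2.1.0 in the submitters' processing notes), without pooling. A fly spike-in scaled their signal densities and does not enter the lists. The deposited lists give a score, a fold enrichment (ratio to the local background of the same library), the −log10 of a p-value and of a q-value for every peak. They were used only within a list, and read depth is unknown, so no interval over reads was possible.

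Groups came from the sample labels. Start sites came from GENCODE M1 (mm9), sequences from the mm9 genome, and later gene lengths from RefSeq (GRCm38). A peak belonged to every gene with a start within 2500 bp of its centre. With 1 library per group there was no test and no p-value: counts of genes with 95% Wilson intervals were set beside all 22232 protein-coding genes. The assignment was checked against bedtools (2.31.1, 0 of 10 lists differed) and tested on simulated data. Python 3.11.15, pandas 2.3.3, SciPy 1.17.1, statsmodels 0.14.6 and matplotlib 3.10.9 were used. Alternatives were windows of 1000 and 5000 bp, any base of a peak, the outermost start only, the higher-scoring 50% of each list, equal numbers of top-scoring peaks per mark (3845, 10234 and 653), a q-value of at most 0.05, other background genes and, added after the data were seen, each peak given only to its nearest gene. Kcnq1 was left out of gene bodies, also after its values were seen.

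Values were given for the 12 members in the most lists (ties by H3K27me3 coverage), for the 5 members with the most covered bases in 1 genotype alone, for members with Flag-PCGF5 and for the member with the highest fold in each list, leaving out some members that are not reported here. The sequences, Kcna10 and the gene-body values were chosen after the data were seen. The members and lists were chosen with earlier results of these data known.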

Additional observations from a re-analysis of the deposited data

Results flagged for a closer look

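The number of potassium channel genes with H2AK119ub1 moved in opposite directions with PCGF5 depletion at the 2 stages. Depleted minus wild type was -7 in ES (21 against 28 members) and 2 in NPC (19 against 17), and this difference between the stages was not tested, since each group had 1 library. The ES value lay between -12 and -7 in all 8 alternatives, and the NPC value turned to -3 when only the higher-scoring 50% of each list was used. Over all protein-coding genes the same differences were -164 and -180.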

How the results depend on the processing

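The share of potassium channel genes with a peak stayed within its own interval in 70 of 90 alternative values, and the net changes kept their sign and stayed in range in 66 of 72. With the higher-scoring 50% of each list, the H3K27me3 shares were 42.6% and 36.2% in wild type and depleted ES and 44.7% and 48.9% in wild type and depleted NPC, the H2AK119ub1 shares 9.57% in depleted ES, 9.57% in wild type NPC and 6.38% in depleted NPC, and the Flag-PCGF5 share in NPC 7.45%. With equal numbers of peaks the H2AK119ub1 shares were 20.2% and 9.57% in wild type and depleted ES, the Flag-PCGF5 share and net change from ES to NPC were 0, and depleted minus wild type ES of H3K27me3 went from -8 to 0. With a window of 1000 bp H2AK119ub1 was at 12.8% in depleted ES and 9.57% in wild type NPC. The differences that turned were depleted minus wild type NPC with the higher-scoring 50% (H2AK119ub1 -3 from 2, H3K27me3 4 from -3) and NPC minus ES of H2AK119ub1 in depleted cells (from -2 to 4 at 1000 bp and 10 with equal numbers); fewer peaks enter these alternatives, and the cause was not tested. Among CpG-rich starts the members' shares were 41.5% (wild type ES), 31.7% (wild type NPC) and 34.1% (depleted NPC) for H2AK119ub1 and 80.5%, 70.7%, 92.7% and 90.2% for H3K27me3, in the order wild type ES, depleted ES, wild type NPC, depleted NPC. In the same order all CpG-rich genes gave 8.65%, 7.62%, 7.57% and 6.2% for H2AK119ub1, 17.6%, 17.4%, 21.9% and 21% for H3K27me3, and 1.1% and 20.3% for Flag-PCGF5 in ES and NPC. Without olfactory, vomeronasal and trace amine receptor genes the background was 7.14%, 6.35%, 5.33% and 4.46%, then 14.3%, 13.8%, 16.7% and 16.5%, and 14.7% for Flag-PCGF5 in NPC. No paired analysis was possible because each group had 1 library. Peak lists hide sub-threshold signal, read depth was not known, and no spread between libraries could be had, so genotype differences of a few genes cannot be told apart from differences between libraries.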
